A study of Mus musculus with 12 samples.

Results

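Formative and primed epiblast factors were followed across mouse embryonic stem cells that carry or lack Tcf3, each with or without added Wnt3a. The genes were Pou3f1, Otx2, Sall2, Sox4, Fgf5, Foxd3 and Zic2, listed by symbol and chosen with earlier results of these data known. They are 7 of the 18193 genes that the array annotation names by a single symbol. They are measured by 16 probe sets, which are the groups of oligonucleotides that report a transcript. Sox4 has 8 of them, Pou3f1 and Fgf5 have 2 each, and the other members have 1 each.

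Wild-type cells were labelled Tcf3+/+ and knockout cells Tcf3-/-. The labels use an older symbol, and the gene is now Tcf7l1, a DNA-binding protein of the Tcf/Lef family. All cells grew in serum medium with Lif on gelatin without feeder cells, and were sampled in control medium or after 24 h in medium holding 50 ng/ml Wnt3a. Each of the 4 combinations had 3 arrays, 12 in all. The labels do not say whether the arrays of a group came from separate cultures, or how many clones each genotype represents, so each p-value reflects only the spread among the arrays at hand, some or all of which may be technical.

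Pluripotent cells pass from a naive state, which resembles the early inner cell mass, through a formative state into a primed state that resembles the epiblast about to gastrulate. Otx2 and Pou3f1 (also called Oct6) are transcription factors that come on as cells leave the naive state, and Fgf5 is the ligand most often used as a mark of that epiblast. Sall2 and Zic2 are zinc-finger factors, Sox4 is an HMG-box factor and Foxd3 is a forkhead factor needed to maintain the epiblast. Tcf7l1 acts largely as a repressor of pluripotency genes, and Wnt ligands stabilise beta-catenin, which relieves that repression. Serum with Lif holds a mixed population in which naive-like and more advanced cells coexist.

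Levels are log2 of the deposited intensity, given for single arrays or as group means ± SD (n = 3). Changes are differences of group means on that scale with the standard error (SE) of a limma fit over all arrays. P-values are limma's, adjusted by the Benjamini-Hochberg method over 28483 probe sets, and a change is called where that p is under 0.05. A level of 5.56, an intensity of 47.2, was the 40th percentile of all values and served as a floor, and a probe set was tested if at least 3 arrays lay above it. Of the 16 probe sets 13 were tested. A gene is counted by its brightest probe set, and 6 of the 7 members were tested in that way, the exception being Fgf5. In bulk RNA, fewer cells of a type and less RNA per cell cannot be told apart.

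Embryonic stem cell markers matched the label, as all 8 (Pou5f1, Sox2, Nanog, Zfp42, Esrrb, Sall4, Tdgf1 and Dppa5a) had means above the floor in every group, the lowest being 10.3 for Esrrb. The 2 Tcf7l1 probe sets were lower on knockout arrays but far above the floor, in control medium at 10.85 and 10.80 for wild type and 9.47 and 9.04 for the knockout. The labels do not say whether those probes lie in the deleted part. A bacterial transcript added during preparation (dap) was at 3.76 ± 0.08 on the 6 control-medium arrays and 12.1 ± 0.08 on the 6 Wnt3a arrays, so medium and preparation cannot be told apart in any Wnt3a effect. The actin 3′ minus 5′ difference, a sign of RNA quality, was in control medium 0.21 ± 0.03 for wild type and 0.35 ± 0.06 for the knockout, and its part in the results was not tested. Trophectoderm marker intensity, summed over 14 genes of which Elf5 was below the floor everywhere, ran from 24651 to 39265 on wild-type and from 3838 to 4289 on knockout arrays in control medium. With Wnt3a it ran from 19520 to 24035 and from 3528 to 3785. Fibroblast marker intensity, summed over 15 genes with Col3a1, Lum, Prrx1 and Fap below the floor everywhere, ran from 20894 to 32129 and from 10336 to 10945 in control medium, and from 24870 to 27286 and 10494 to 11227 with Wnt3a. Both sums were lower in the knockout, as Pou3f1, Sall2 and Sox4 were, and their part in these results was not tested. In control medium 7 of 13 tested trophectoderm markers were called lower, led by Krt18 (-4.87), and of 11 fibroblast markers 6 were called lower and 2 higher. Over all genes 21.5% were called lower and 19% higher there.

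Primitive endoderm marker intensity, summed over 13 genes of which all lay above the floor in at least 1 group, was uneven on knockout control arrays, at 3499, 10585 and 4878. On wild-type control arrays it ran from 4803 to 5827, and with Wnt3a from 6609 to 7740 in wild-type and from 6472 to 8234 in knockout cells. In control medium 4 of these 13 genes were called higher in the knockout, where 19% of all genes were. Without knockout control replicate 2, which had the sum of 10585, no call of a member's brightest probe set changed in any comparison, and a Sox4 probe set (1455867_at) gained a call for Wnt3a in knockout cells (0.24, adjusted p = 0.0468). Neuron and glia marker intensity, summed over 12 genes with Dcx, Aqp4 and Snap25 below the floor everywhere, ran from 6637 to 7024 on wild-type and from 9877 to 10385 on knockout arrays in control medium, and from 8617 to 9383 and 11487 to 11530 with Wnt3a. Of 9 tested genes of that list 1 was called higher in the knockout in control medium (Stmn2, 0.70) and 3 lower, so the higher sum did not reflect most of the list.

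The comparisons asked what loss of Tcf3 and addition of Wnt3a each did to these genes, and whether one effect depended on the other. In control medium Pou3f1, Sall2 and Sox4 fell in the knockout and Foxd3 rose. With Wnt3a, wild-type cells lost Pou3f1, Otx2, Sall2 and Sox4 transcript and knockout cells lost Pou3f1, Otx2, Sox4 and Foxd3 transcript. Both comparisons within control medium and within wild-type cells use the same wild-type control arrays.

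Counted by brightest probe set, 3 of 6 tested members were lower and 1 was higher in the knockout in control medium, where 21.5% of all 13811 genes were called lower and 19% higher. Wnt3a in wild-type cells lowered 4 of 6 and raised none, against 22.4% lower and 18.7% higher over all genes. Wnt3a in knockout cells lowered 4 of 6 and raised none, against 14.9% and 13.4%. The knockout in Wnt3a medium had 3 of 6 lower and none higher, against 13.9% and 12.4%. At an unadjusted p under 0.05 in limma, 0 members were higher in either Wnt3a comparison and 1, Foxd3, was higher in the knockout in Wnt3a medium. The median change of the 6 was -1.10, -1.11, -0.52 and -0.36 in that order, where the median over all genes lay between -0.02 and 0.01. Among the 12 tested probe sets other than that of Fgf5, 8, 9, 6 and 7 were called lower, where 18.2%, 21.7%, 16% and 13.2% of all probe sets were. Of these 12, Sox4 has 6 and Pou3f1 has 2, so they repeat genes and are not independent readings. Fgf5 is left out of these counts because it passed the filter through the wild-type control arrays alone. Zic2 passed through knockout arrays alone and stays in the counts of tested members, but was not called in any of them. The members were chosen with earlier results of these data known. The shares of all genes are therefore background, and no excess over them was tested.

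**Figure D1:**
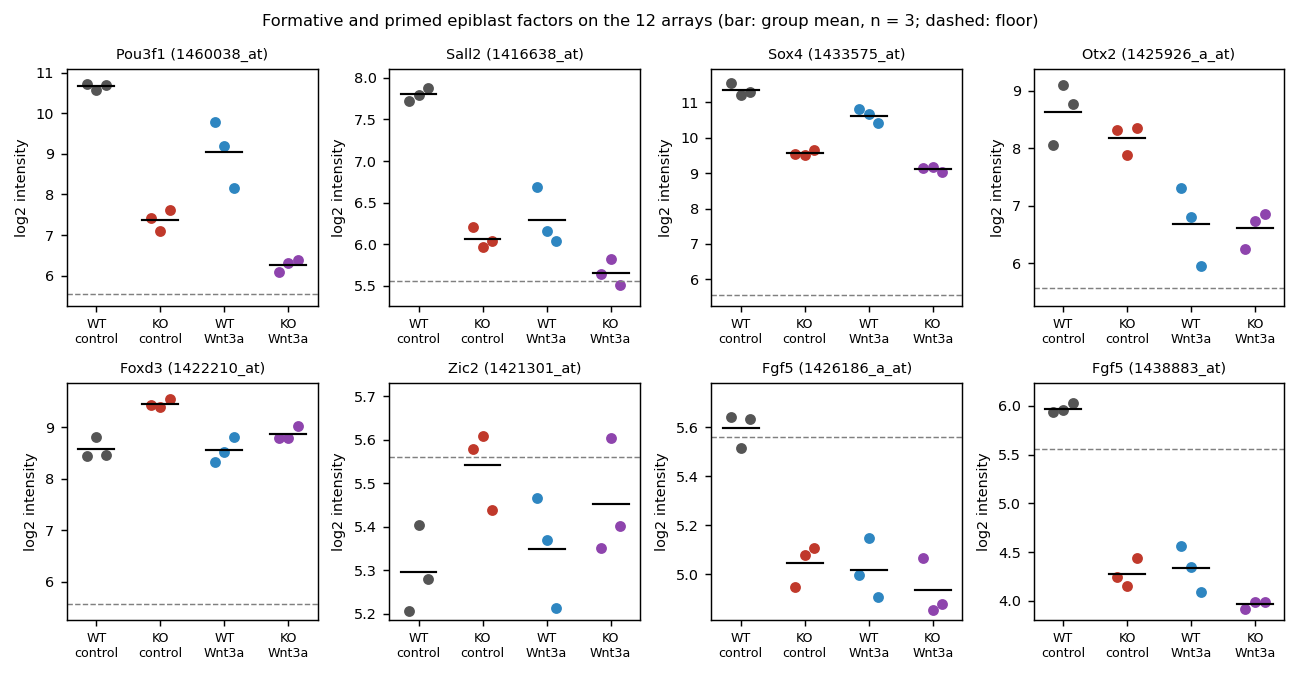
Log2 intensity on each of the 12 arrays (y axis) in the 4 groups (x axis) for the brightest probe set of each member and the other Fgf5 probe set, with bars for group means (n = 3) and a dashed line at the floor of 5.56. Pou3f1, Sall2 and Sox4 were highest on wild-type control arrays, Otx2 was low on both sets of Wnt3a arrays, Foxd3 was highest on knockout control arrays, and the Zic2 means lay below the floor.

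Pou3f1, a POU-domain factor of the formative epiblast, had the widest range among the members. Its brightest probe set (1460038_at) read 10.72, 10.57 and 10.70 on the wild-type control arrays and 7.41, 7.10 and 7.61 on the knockout control arrays. With Wnt3a it read 9.78, 9.20 and 8.16 in wild-type and 6.08, 6.31 and 6.38 in knockout cells. The 4 groups did not overlap, and the wild-type Wnt3a arrays were spread over 1.63.

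The knockout lowered Pou3f1 by 9.77-fold in control medium (-3.29 ± 0.30, adjusted p = 5.27e-06). Wnt3a lowered it by 3.07-fold in wild-type cells (-1.62 ± 0.30, adjusted p = 0.00113). In Wnt3a medium the knockout was 6.92-fold below wild type (-2.79 ± 0.30, adjusted p = 5.78e-05). With both, the level was 21.2-fold below wild-type control cells.

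In knockout cells the Wnt3a effect on Pou3f1 was -1.12 ± 0.30 (adjusted p = 0.0142). Without knockout control replicate 3 it missed the threshold (adjusted p = 0.0588), and with the probe sets averaged it was -0.72 (adjusted p = 0.0697). The second probe set (1422068_at) also fell in the knockout (-2.62, adjusted p = 1.23e-05) and with Wnt3a in wild-type cells (-1.41, adjusted p = 0.00131). In knockout cells its Wnt3a effect was -0.32 (adjusted p = 0.398), so the 2 probe sets differed in that call. The order was wild-type control, wild-type Wnt3a, knockout control and knockout Wnt3a, and by the brightest probe set every pair of neighbours differed. Wild-type cells with Wnt3a stayed 3.19-fold above knockout cells in control medium (1.67 ± 0.30, adjusted p = 0.000781).

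Sall2, a zinc-finger factor of the spalt family, read 7.73, 7.79 and 7.88 on the wild-type control arrays and 6.20, 5.96 and 6.04 on the knockout control arrays. With Wnt3a it read 6.69, 6.16 and 6.04 in wild-type and 5.64, 5.83 and 5.51 in knockout cells. The wild-type control arrays stood apart from the other 9, and knockout control and wild-type Wnt3a arrays overlapped. One of the knockout Wnt3a arrays lay below the floor, under which values have no order.

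The knockout lowered Sall2 by 3.33-fold in control medium (-1.73 ± 0.15, adjusted p = 3.00e-06). Wnt3a lowered it by 2.84-fold in wild-type cells (-1.51 ± 0.15, adjusted p = 1.19e-05). In Wnt3a medium the knockout effect was -0.64 ± 0.15 (adjusted p = 0.00773). In knockout cells the Wnt3a effect was -0.41 ± 0.15, just outside the threshold (adjusted p = 0.0506). It passed with the stricter filter, with a trend in the prior and in a fit of only the arrays compared (adjusted p from 0.0226 to 0.0461). It also passed without wild-type Wnt3a replicate 1 or 3 or knockout Wnt3a replicate 2 (adjusted p from 0.00734 to 0.0477). Wild-type cells with Wnt3a and knockout cells in control medium, neighbours in the order, differed by 0.23 (95% interval -0.09 to 0.55, adjusted p = 0.221).

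Sox4, a transcription factor of the SoxC class that is widely expressed in progenitor cells, was read brightest by 1433575_at. That probe set gave 11.52, 11.21 and 11.29 on the wild-type control arrays and 9.53, 9.52 and 9.65 on the knockout control arrays. With Wnt3a it gave 10.81, 10.65 and 10.40 in wild-type and 9.13, 9.18 and 9.03 in knockout cells. The 4 groups did not overlap.

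The knockout lowered Sox4 by 3.42-fold in control medium (-1.78 ± 0.11, adjusted p = 3.28e-07) and by 2.84-fold in Wnt3a medium (adjusted p = 3.09e-06). Wnt3a lowered it by 1.65-fold in wild-type cells (-0.72 ± 0.11, adjusted p = 0.000263) and by 1.37-fold in knockout cells (-0.45 ± 0.11, adjusted p = 0.00808). The order matched that of Pou3f1, and all neighbours differed.

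The other Sox4 probe sets share the gene and are not replicates of a condition. Of its 6 tested probe sets, 5 were called lower in the knockout in control medium, 5 with Wnt3a in wild-type cells, 3 with Wnt3a in knockout cells and 4 in the knockout in Wnt3a medium. The exception in both first comparisons was 1455867_at, which changed by 0.05 with the knockout (adjusted p = 0.636) and by 0.21 with Wnt3a in wild-type cells (adjusted p = 0.0347). That rise missed the threshold without wild-type control replicate 1 or 2 or without any single wild-type Wnt3a array (adjusted p from 0.0525 to 0.121). The 2 untested probe sets, 1458332_x_at and 1443778_at, changed by -0.05 and 0.16 with the knockout in control medium in a fit without the filter (adjusted p = 0.864 and 0.175).

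**Figure D2:**
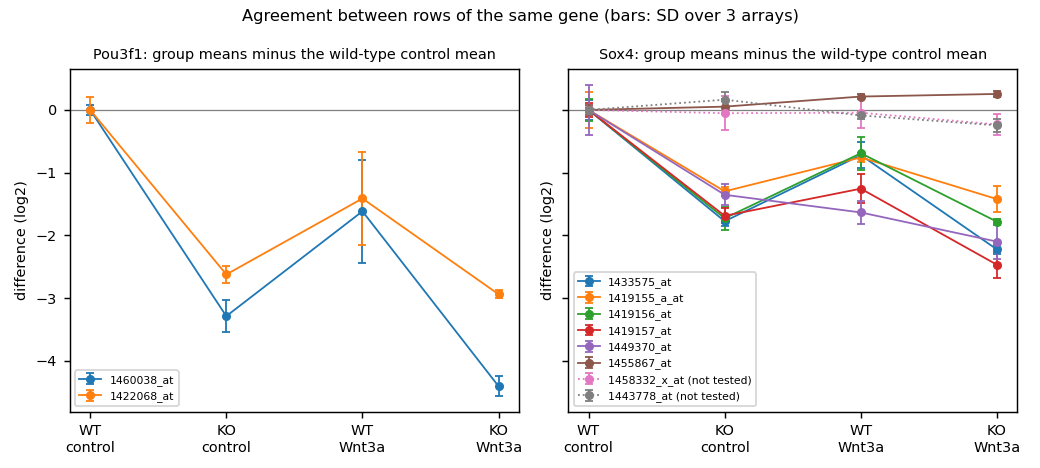
Group means minus the wild-type control mean (log2, y axis) for each probe set of Pou3f1 and Sox4 in the 4 groups (x axis), with bars for the SD over 3 arrays and dotted lines for probe sets not tested. Both Pou3f1 probe sets and 5 Sox4 probe sets dropped in the knockout, while 1455867_at and the 2 untested Sox4 probe sets stayed within 0.5 of their wild-type control mean.

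Otx2, a homeodomain factor that directs the exit from the naive state, showed another pattern. Its probe set read 8.05, 9.09 and 8.77 on the wild-type control arrays and 8.31, 7.88 and 8.35 on the knockout control arrays. With Wnt3a it read 7.30, 6.80 and 5.96 in wild-type and 6.25, 6.72 and 6.85 in knockout cells. The Wnt3a arrays lay below all control-medium arrays, and the genotypes overlapped within each medium.

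Wnt3a lowered Otx2 by 3.86-fold in wild-type cells (-1.95 ± 0.32, adjusted p = 0.000552) and by 2.97-fold in knockout cells (-1.57 ± 0.32, adjusted p = 0.00372). The knockout effect was -0.46 ± 0.32 in control medium (95% interval -1.16 to 0.24, adjusted p = 0.309). In Wnt3a medium it was -0.08 ± 0.32 (95% interval -0.78 to 0.62, adjusted p = 0.895). These intervals do not show that the genotypes were alike, since a fall of up to 1.16 is within them. Of the neighbours in the order, only knockout control and wild-type Wnt3a differed (-1.49, adjusted p = 0.00279).

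Foxd3, the forkhead factor of the epiblast and neural crest, read 8.44, 8.82 and 8.46 on the wild-type control arrays and 9.43, 9.40 and 9.56 on the knockout control arrays. With Wnt3a it read 8.32, 8.52 and 8.81 in wild-type and 8.79, 8.80 and 9.02 in knockout cells. The knockout control arrays lay above all others, and the 9 others overlapped.

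The knockout raised Foxd3 by 1.85-fold in control medium (0.89 ± 0.13, adjusted p = 0.000204). Wnt3a lowered it in knockout cells (-0.59 ± 0.13, adjusted p = 0.00554). In wild-type cells the Wnt3a effect was -0.02 ± 0.13 (95% interval -0.30 to 0.26, adjusted p = 0.917). In Wnt3a medium the knockout effect was 0.32 ± 0.13 (adjusted p = 0.0965), and without wild-type Wnt3a replicate 3 it was 0.45 (adjusted p = 0.023).

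Fgf5, the secreted growth factor of the epiblast, lay close to the floor. Its brighter probe set (1426186_a_at) read 5.64, 5.51 and 5.63 on the wild-type control arrays and between 4.85 and 5.15 on the other 9, so it failed the filter. The other (1438883_at) read 5.94, 5.96 and 6.03 on the wild-type control arrays, 4.24, 4.15 and 4.44 on the knockout control arrays, and from 3.91 to 4.56 with Wnt3a. It passed the filter only through the wild-type control arrays and so had to differ, which leaves no test of it.

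Against the floor, Fgf5 in wild-type control cells was at least 1.33-fold above each of the other 3 groups by 1438883_at. The 3 other groups had means below the floor, so no order is given among them.

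Zic2, a zinc-finger factor of the primed epiblast and neural plate, was near background. Its probe set read 5.21, 5.40 and 5.28 on the wild-type control arrays, 5.58, 5.61 and 5.44 on the knockout control arrays, 5.47, 5.37 and 5.21 on the wild-type Wnt3a arrays and 5.35, 5.60 and 5.40 on the knockout Wnt3a arrays. All 4 group means were below the floor and 3 arrays lay above it, so no fold is given. Those 3 were all knockout arrays (5.58 and 5.61 in control medium, 5.60 with Wnt3a). Zic2 thus passed the filter through the knockout alone, and its knockout p-values are given as values and not as a test. The knockout effect in control medium was 0.25 ± 0.09 (adjusted p = 0.0534), and dropping any of wild-type control replicate 2, knockout control replicate 3, wild-type Wnt3a replicate 1 or 3, or knockout Wnt3a replicate 2 brought that p to between 0.0379 and 0.0475.

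**Figure D3:**
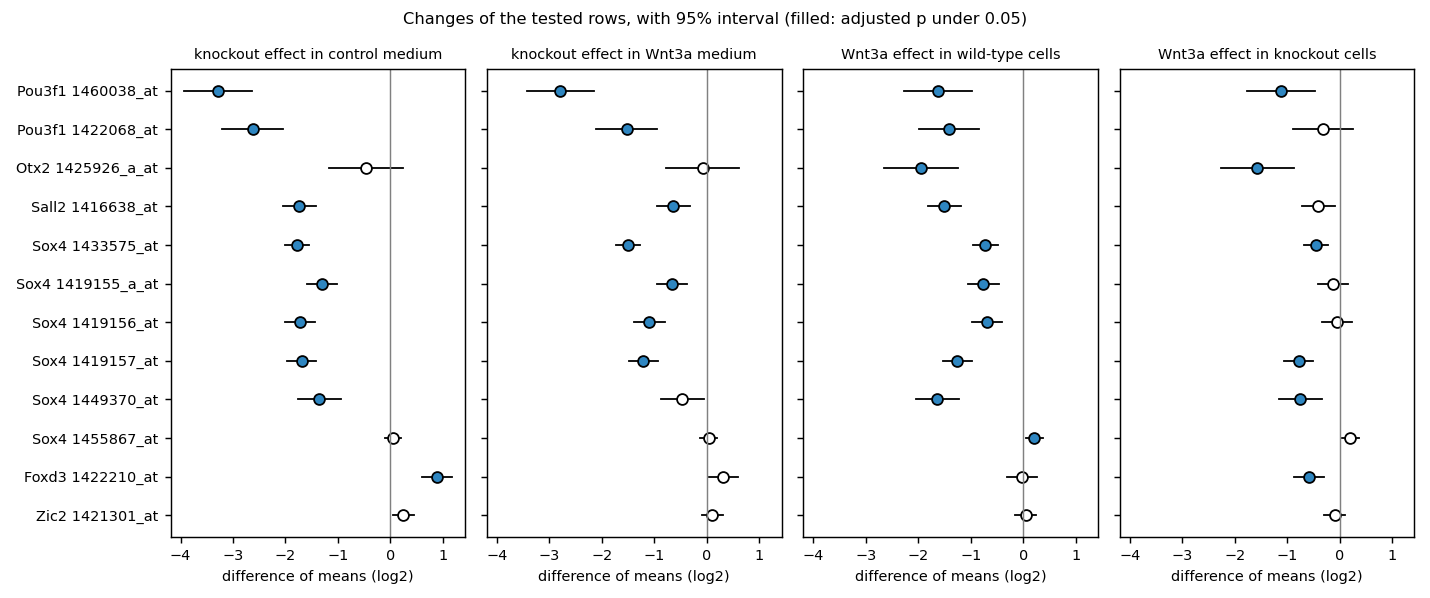
Log2 differences of group means (x axis) with 95% intervals for the 12 tested probe sets other than that of Fgf5 (y axis) in 4 comparisons, filled where the adjusted p was under 0.05. Pou3f1, Sall2 and the Sox4 probe sets other than 1455867_at lay left of 0 with the knockout, whereas Otx2 did so mainly with Wnt3a and Foxd3 lay to the right at 0.89 in control medium.

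Whether the knockout effect differed between media was tested as the interaction, the Wnt3a response of knockout cells less the response of wild-type cells. By brightest probe set 1 of 6 members was called, where 3.65% of all genes were called in either direction. That member was Sall2, whose Wnt3a effect was weaker in the knockout by 1.10 ± 0.21 (adjusted p = 0.0191). The call was lost without wild-type control replicate 3 (1.06, adjusted p = 0.0577) and without wild-type Wnt3a replicate 2 (1.03, adjusted p = 0.0504).

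The Pou3f1 interaction was 0.50 ± 0.42 (adjusted p = 0.559) by the brightest probe set and 1.10 ± 0.38 (adjusted p = 0.127) by the second. Without wild-type Wnt3a replicate 1 the second was 1.51 (adjusted p = 0.00228). The Foxd3 interaction was -0.57 ± 0.18 (adjusted p = 0.109), and it passed without wild-type control replicate 2 (-0.69, adjusted p = 0.0453) or wild-type Wnt3a replicate 1 (-0.68, adjusted p = 0.0445). For Otx2 the interaction was 0.38 ± 0.46 (adjusted p = 0.703), and for the brightest Sox4 probe set it was 0.27 ± 0.15 (adjusted p = 0.347). Other Sox4 probe sets gave 0.63 (1419155_a_at), 0.64 (1419156_at), 0.48 (1419157_at) and 0.89 (1449370_at), with adjusted p from 0.0829 to 0.164. Each of these passed without wild-type control replicate 2 or without wild-type Wnt3a replicate 1 (adjusted p from 0.0201 to 0.0466). The interaction of 1455867_at was -0.01 (adjusted p = 0.971).

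Set directly against each other, wild-type cells with Wnt3a and knockout cells in control medium differed in 4 of 6 members, where 43.9% of all genes were called. Pou3f1 and Sox4 were higher with Wnt3a (1.67 and 1.05), and Otx2 and Foxd3 were lower (-1.49 and -0.91). Knockout cells with Wnt3a differed from wild-type control cells in 4 of 6, where 55.2% of genes were called. The changes were -4.41 for Pou3f1, -2.23 for Sox4, -2.14 for Sall2 and -2.03 for Otx2, while Foxd3 was at 0.30 (adjusted p = 0.07).

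Wild-type arrays with Wnt3a were uneven for several of these genes, as the Pou3f1 readings of 9.78, 9.20 and 8.16 show. Of the 11 member probe sets with all 3 of these arrays above the floor, 8 (72.7%) were highest on replicate 1 and lowest on replicate 3, as were 25.7% of all such probe sets. They belong to Pou3f1, Otx2, Sall2 and Sox4, with both Pou3f1 probe sets and several of Sox4 among them. The share therefore counts some genes repeatedly. Another 2 ran the other way, as did 23.7% of all. The median deviation from the group mean was 0.27 on replicate 1 and -0.22 on replicate 3. Other lists, counted once per gene by the brightest probe set, were uneven too. The order of the members was shared by 14 of 22 FGF and ERK genes (63.6%), and the other order was held by 15 of 20 naive pluripotency genes (75%) and 9 of 13 primitive endoderm markers (69.2%). The SD of Pou3f1 among these arrays (0.82) stood at percentile 99.96 of such probe sets, that of Otx2 (0.68) at 99.88 and that of Sall2 (0.35) at 97.6.

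**Figure D4:**
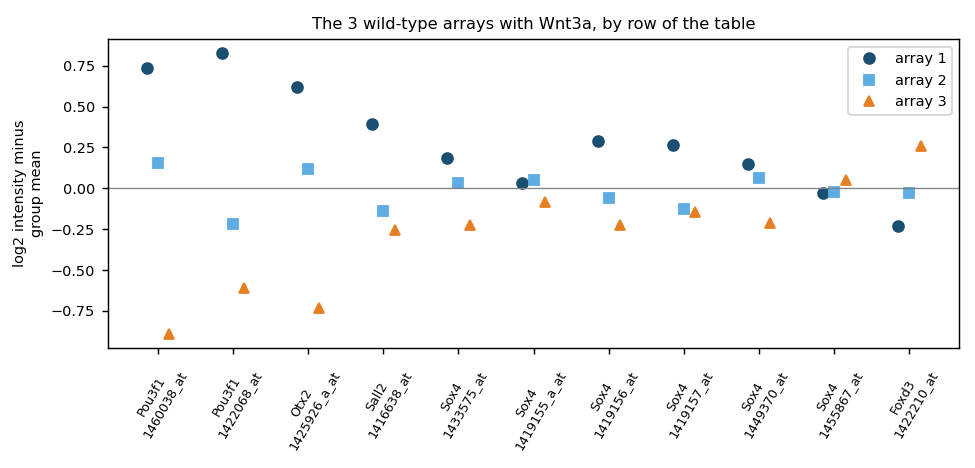
Log2 intensity minus the group mean (y axis) on each of the 3 wild-type Wnt3a arrays for the 11 tested member probe sets with all 3 arrays above the floor (x axis). Replicate 1 lay above replicate 3 in most, with Pou3f1 and Otx2 the most spread and Foxd3 and one Sox4 probe set (1455867_at) the other way.

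Other genes of the formative and primed epiblast were more often called lower than higher in all 4 pairwise comparisons. Their counts and those of the naive genes stand beside the shares of all genes given above for the members. Both lists were also chosen with earlier results of these data known, so the counts are no test. Of 22 tested of 23 on the array, 12 were lower and 2 higher in the knockout in control medium, with a median change of -0.41. With Wnt3a in wild-type cells 13 were lower and 3 higher, with a median of -0.33. With Wnt3a in knockout cells 10 were lower and 1 was higher, and in the knockout in Wnt3a medium 14 were lower and 3 higher. The higher count of 1 became 2 without knockout control replicate 3.

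In the knockout in control medium the largest falls of that list were in Ets1, a transcription factor, at 5.73-fold (-2.52, adjusted p = 1.9e-06), and Sox11, a close relative of Sox4, at 4.14-fold (-2.05). Pim2, a kinase, fell by 3.20-fold and Hes6, a helix-loop-helix factor, by 3.18-fold. Fgf8, a ligand, changed by -0.45 (adjusted p = 0.199) and did not pass. With Wnt3a in wild-type cells Nkx1-2, a homeobox gene of the caudal epiblast, rose by at least 4.41-fold, while Sox3, a neural progenitor factor, fell by 2.01-fold. In knockout cells Nkx1-2 rose by at least 6.47-fold. Its means in control medium lay below the floor in both genotypes, so it passed the filter largely through the Wnt3a arrays where it was high. Its rise is therefore given as a value and not as a test, although it is among the genes counted as higher with Wnt3a.

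Most naive pluripotency genes rose with the knockout in control medium and with Wnt3a in wild-type cells, comparisons that share their control arrays. In the knockout in control medium 18 of 20 were higher and 1 lower, with a median of 0.91, and with Wnt3a in wild-type cells 17 were higher, with a median of 0.84. Tbx3, a T-box transcription factor, was 5.82-fold higher in the knockout (2.54) and 3.42-fold higher with Wnt3a in wild-type cells (1.77). Tfcp2l1, a factor of the naive state, was 4.20-fold and 3.35-fold higher. With Wnt3a in knockout cells 5 were higher and 2 lower, and the higher count was 3 without knockout control replicate 2 or without knockout Wnt3a replicate 1 or 2.

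Core pluripotency genes moved less, with 5 of 10 higher and 1 lower in the knockout in control medium and a median of 0.31. Pou5f1, the core factor of all pluripotent states, was higher there by 0.32 (adjusted p = 0.00587). Gastrulation-stage and Nodal-responsive genes were mixed, with 2 of 13 higher and 5 lower and a median of 0.01. Lefty1, a Nodal inhibitor, was the largest called change there at -1.21 (adjusted p = 0.00115). FGF and ERK signalling genes, a list of ligands, receptors and intracellular regulators, were 6 of 22 higher and 7 lower. Etv4, Etv5 and Fgf8 are counted both there and in the formative list. Over all genes 19% were called higher and 21.5% lower in this comparison, so no direction is read from the FGF and ERK or gastrulation-stage counts.

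Other genes of the members' families are given beside the 19% of all genes called higher and 21.5% called lower in the same comparison. In the knockout in control medium 2 of 6 other tested POU-family genes were higher. Among other genes of the Sall, Zic, Otx and Foxd families 3 of 6 were higher, with Sall3 at 1.31, Zic5 at 0.58 and Sall1 at 0.54. Of 16 Sox-family genes 2 were higher and 3 lower, and of 12 other Fgf ligands 3 were higher and 2 lower, with Fgf13 at -1.94 and Fgf4 at 0.77. The Sox-family and ligand shares were near or below those of all genes, and the other families had 6 tested genes each, so no direction is read from them.

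**Figure D5:**
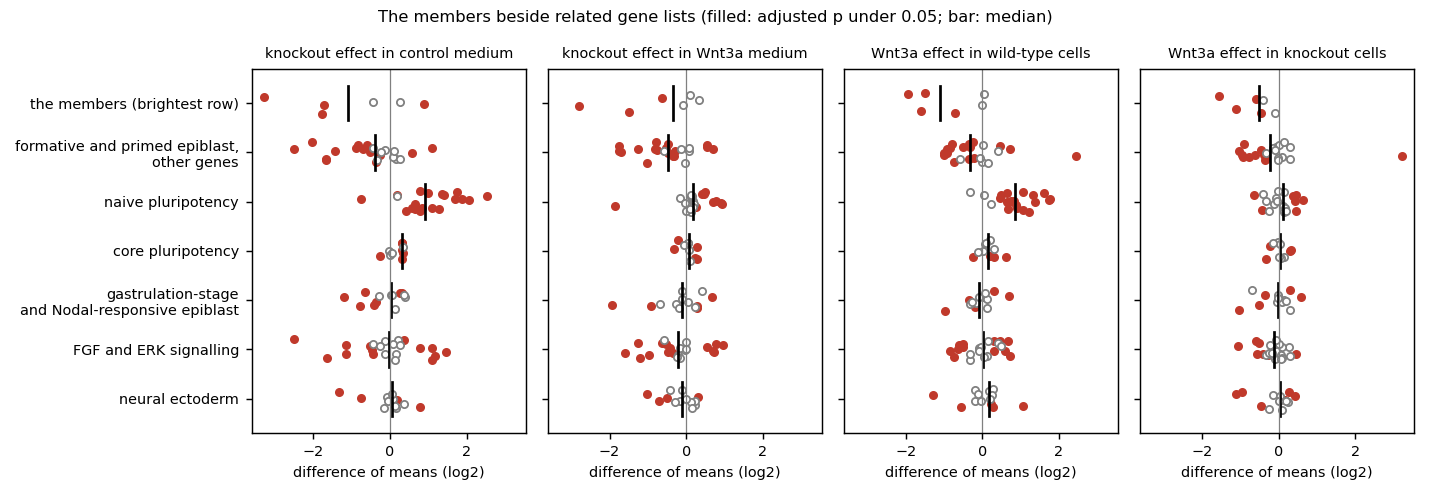
Log2 differences of group means (x axis) for single genes of the members and 6 lists (y axis) in 4 comparisons, filled where the adjusted p was under 0.05, with a bar at each median. With the knockout in control medium and Wnt3a in wild-type cells, naive medians were 0.91 and 0.84 and other formative medians -0.41 and -0.33. With Wnt3a in knockout cells and the knockout in Wnt3a medium, naive medians were 0.12 and 0.17 and other formative medians -0.23 and -0.48.

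Genes with the profile most like each member were found by the root mean square difference over the 12 arrays after centring, among 13810 genes. For Pou3f1 they were Tmem30b (0.358), Slc40a1 (0.381) and Vgll3 (0.386), where the median over all genes was 1.72. For Sall2 the closest was Ugt8a (0.153, median 0.838), for Sox4 Atxn1l (0.089, median 0.896), and for Otx2 Golt1b (0.37, median 0.983). Among the 3 closest to Sall2, Tpbg was at 8.04 in wild-type control, 6.57 in knockout control, 6.74 in wild-type Wnt3a and 5.88 in knockout Wnt3a cells. Foxd3 and Zic2 spanned less than 1 over the groups, so no likeness was computed for them.

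Promoter sequences were at hand for 5 of the 7 members, with 9 entries in RefSeq's mouse assembly GRCm38.p6. They are shown for Sox4 and Sall2, which fell both with the knockout and with Wnt3a in wild-type cells, for the Otx2 entry that held a motif match, and for Foxd3, which rose with the knockout, as the 250 bases before the start site on the gene's strand, with a motif match in capitals.
Sox4: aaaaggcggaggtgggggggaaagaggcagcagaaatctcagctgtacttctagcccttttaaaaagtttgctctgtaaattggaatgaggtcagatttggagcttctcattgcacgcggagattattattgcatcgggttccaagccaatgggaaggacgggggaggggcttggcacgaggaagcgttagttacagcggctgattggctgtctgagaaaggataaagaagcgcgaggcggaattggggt
Sall2 start 1: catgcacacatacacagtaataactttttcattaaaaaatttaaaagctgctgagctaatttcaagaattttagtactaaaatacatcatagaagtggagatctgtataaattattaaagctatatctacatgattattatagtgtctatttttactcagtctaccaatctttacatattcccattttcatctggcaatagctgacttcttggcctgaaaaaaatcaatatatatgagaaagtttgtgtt
Sall2 start 2: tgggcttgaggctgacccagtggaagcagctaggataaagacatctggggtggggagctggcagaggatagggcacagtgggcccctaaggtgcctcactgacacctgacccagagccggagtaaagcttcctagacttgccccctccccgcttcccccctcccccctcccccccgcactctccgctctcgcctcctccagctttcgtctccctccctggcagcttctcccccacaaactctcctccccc
Otx2 start 3: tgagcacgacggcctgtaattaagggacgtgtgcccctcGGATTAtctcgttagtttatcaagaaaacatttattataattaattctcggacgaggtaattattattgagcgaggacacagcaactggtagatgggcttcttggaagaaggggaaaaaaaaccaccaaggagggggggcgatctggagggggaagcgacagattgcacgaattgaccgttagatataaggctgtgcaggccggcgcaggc
Foxd3: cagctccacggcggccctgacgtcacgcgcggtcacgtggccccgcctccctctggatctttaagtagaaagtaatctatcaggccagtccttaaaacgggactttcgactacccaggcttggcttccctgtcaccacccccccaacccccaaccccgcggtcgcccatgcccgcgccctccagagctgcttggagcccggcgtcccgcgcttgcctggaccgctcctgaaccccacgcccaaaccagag
These lie at chr13:28953700-28953949 (minus strand) for Sox4, chr14:52328671-52328920 and chr14:52316324-52316573 (minus strand) for Sall2, chr14:48665110-48665359 (minus strand) for Otx2, and chr4:99656049-99656298 (plus strand) for Foxd3. Their GC content was 50.8%, 28%, 64.4%, 48.4% and 65.6%, against a median of 52.4% over all promoters.

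The 300 bases from 250 before to 50 after each start were searched on both strands for 4 motifs. CTTTGA, the core of the Tcf/Lef site, was in none of the 9 entries and in 16% of 32851 promoters. ATGCAAAT, the octamer bound by POU factors, was in none and in 1.74%. ATTGTT, a Sox-type motif, was in none and in 10.7%. TAATCC, an Otx-type motif, was in 1 of 9, on the strand opposite to Otx2 in the entry printed, and in 7.06% of promoters. A match is a description of letters in this window, and its absence says only that those letters were not in it.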

How the data were processed

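The authors deposited a table of linear intensities per probe set on the array, and the submitters' processing notes name RMA as a tool, without a version. Further settings and the build were not stated there. From the 45101 probe sets, 64 controls were left out. Log2 was taken with no pseudocount. Symbols came from the platform annotation, in which 34945 probe sets had 1 symbol, 932 had several and 9160 were not listed. Likeness took the 3 closest genes for members spanning at least 1 over the groups.

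Group means over all 12 arrays entered a linear model in limma 3.58.1 under R 4.3.3, with lmFit and a constant eBayes prior, and p-values were adjusted over the 28483 probe sets with at least 3 arrays above the 40th percentile. The median SE of a difference was 0.0934, and 3 arrays per group limit the precision. Arrays within groups correlated at 0.9950 to 0.9981. Tested on simulated data for the knockout comparison in control medium over 28483 probe sets, the fit recovered 93% of changes of 1 and 100% of changes of 2 on the log2 scale, with 9 false calls. The members and lists were chosen with earlier results of these data known. Of 217 list symbols 12 were not matched. Named genes are all members, and from each list up to 4 called and 2 uncalled genes with the largest change per comparison. Alternatives covered the filter, centring, normalization, choice of probe set, prior, replicate block, single arrays left out and a fit of only the arrays compared.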

Additional observations from a re-analysis of the deposited data

Results flagged for a closer look

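Sall2 showed a knockout effect that differed between media by 1.10 on the log2 scale, with changes of -1.73 in control medium and -0.64 in Wnt3a medium. The test was limma's interaction term (adjusted p = 0.0191). Knockout cells averaged 6.07 in control medium and 5.66 with Wnt3a, close to the floor of 5.56. The part of the floor in this difference was not tested.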

How the results depend on the processing

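Counts of called members under the 21 alternatives stayed within 1.5 times of the main value for the 4 pairwise comparisons. The number of members tested was not always 6. It was 5 with the stricter filter, and 7 without a filter or with all probe sets averaged, where Fgf5 entered. Averaged, Fgf5 passed through the wild-type control arrays alone, so its part in those counts is no test. The count for the interaction was 1 and became 2 when all probe sets of a gene were averaged. Leaving out 1 array gave from 0 to 2, being 0 without wild-type control replicate 3 or wild-type Wnt3a replicate 2, and 2 without wild-type control replicate 2 or wild-type Wnt3a replicate 1. No called member change turned its direction. Of 1786 comparisons of a member probe set with an alternative, 1702 kept their direction and side of the threshold, 32 lost the call, 37 gained one and 15 uncalled ones changed sign, and the cause was not tested.

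Same-numbered arrays did not deviate together (18 pairs with r from -0.25 to 0.24, and 36 other pairs from -0.29 to 0.29). No pairing by number was seen, but so few arrays per group cannot show that same-numbered arrays were cultured or processed apart. With the replicate block 5 members were called in the knockout in control medium in place of 4, as Zic2 passed (adjusted p = 0.0384). Zic2 entered the fit through knockout arrays alone, so that call is no test. Levels near the floor limit Fgf5, Zic2 and the lowest Sall2 group.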
